A study of Glycine max with 11 samples.

Results

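The 100 genes described here had their highest level among freshly harvested soybean seeds at stage 8.2, a stage of late maturation. They were chosen by their values. Among 19317 genes with at least 2 CPM (counts scaled to a library total of 1000000) at stage 8.2, out of 56044 in all, genes were ranked by log2(CPM + 1) at stage 8.2 minus the highest such level in the 8 other libraries of freshly harvested seeds, and the first 100 were kept. RNA had been sequenced from whole seeds of the cultivar BRS284, grown in the field and pooled from many plants at each stage, so that cotyledons, embryonic axis and seed coat were read together. Freshly harvested seeds, frozen in liquid nitrogen, gave 1 library each at stages 7.1, 7.3, 8.1, 8.2 and 8.3 and 2 libraries each at stages 7.2 and 9, stage 9 being the dry mature seed. A further 2 libraries came from stage 7.2 seeds dried after harvest at 30 °C and 40% relative humidity to 10% moisture, called dried seeds. All 11 libraries shared the cultivar and the crop, and no library came from another genotype. Dried seeds did not enter the rule.

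Plastids keep a small genome of their own, which codes for core subunits of the photosystems, of the cytochrome b6-f complex and of Rubisco, and for part of the machinery that transcribes and translates it. The remaining plastid proteins are coded in the nucleus. Copies of plastid DNA are also found in plant nuclear genomes, so a gene model on a nuclear chromosome can resemble a plastid gene closely. Soybean seeds are green during filling and lose their chlorophyll as they mature and dry.

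Of the 100 genes, 71 were annotated in the part of the study's supplementary tables used here, against 1744 (9.03%) of the 19317 genes with at least 2 CPM at stage 8.2. The best Arabidopsis match of 53 of the 71 was a gene of the plastid genome, and these are called plastid-like. Only 84 (4.82%) of the 1744 annotated genes were of this kind. A further 3 genes had a plastid name without such a match, 7 had no name, 8 had another name, and 29 were not in the tables. The study's tables list genes that varied over its samples, transcription factors of its network, and genes selected on the contrast of stage 9 with dried seeds. Having an annotation is therefore not independent of the levels in those seeds. Because only part of the tables was used, a gene called not in the tables may still be listed by the study. All 56044 gene identifiers placed a gene on chromosomes 1 to 20 or on an unplaced scaffold. Reads from plastid transcripts and from nuclear copies therefore cannot be told apart in these counts.

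Stage 8.2 had 1 library, so the stage and the library cannot be told apart. Totals ranged from 12881662 to 60626937 counts per library, both extremes in dried seeds, with 19621133 at stage 8.2. In the study's listing of mapped reads, which lacks stage 8.3, the mapped share was lowest at stage 8.2. Both libraries of dried seeds came next. The part of this difference in the levels below was not tested. The 10 marker genes of seed storage tissue, for oleosins and late embryogenesis abundant proteins, summed to 2606 CPM at stage 8.2, against 5083 to 14230 CPM in the other libraries. The 3 chalcone synthase genes taken as seed coat markers summed to 25.0 CPM at stage 8.2 and to 44.3 CPM or more elsewhere, and the 6 histone H4 genes taken as markers of dividing cells summed to 95.4 CPM, against 13.7 to 75.7 CPM. None of these markers was among the 100 genes, and their part in the levels below was not tested. A list of 24 green tissue markers held 16 of the 100 genes, so its levels are not separate from theirs. It summed to 261 CPM at stage 8.2, 203 and 251 CPM in dried seeds and at most 161 CPM elsewhere. Fewer cells of a type and less RNA per cell cannot be told apart in whole seeds.

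By the rule, each of the 100 genes was read less in the other fresh libraries than at stage 8.2. Together they took 340 CPM at stage 7.1, 555 and 384 CPM at stage 7.2, 978 CPM at stage 7.3, 502 CPM at stage 8.1, 4816 CPM at stage 8.2, 807 CPM at stage 8.3, and 1832 and 1520 CPM at stage 9. Dried seeds gave 5432 and 5743 CPM, above every library of fresh seeds. The median gene had 8.49 CPM at stage 8.2, against 0.29 CPM at stage 7.1, 1.42 CPM at stage 8.1 and 1.15 CPM at stage 8.3. At stage 8.2, 54 genes were under 10 CPM and 9 had at least 50 CPM, and these 9 set most of the sum. The heat map of all 100 genes shows the narrow column at stage 8.2 and which genes were as high in dried seeds.

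**Figure D1:**
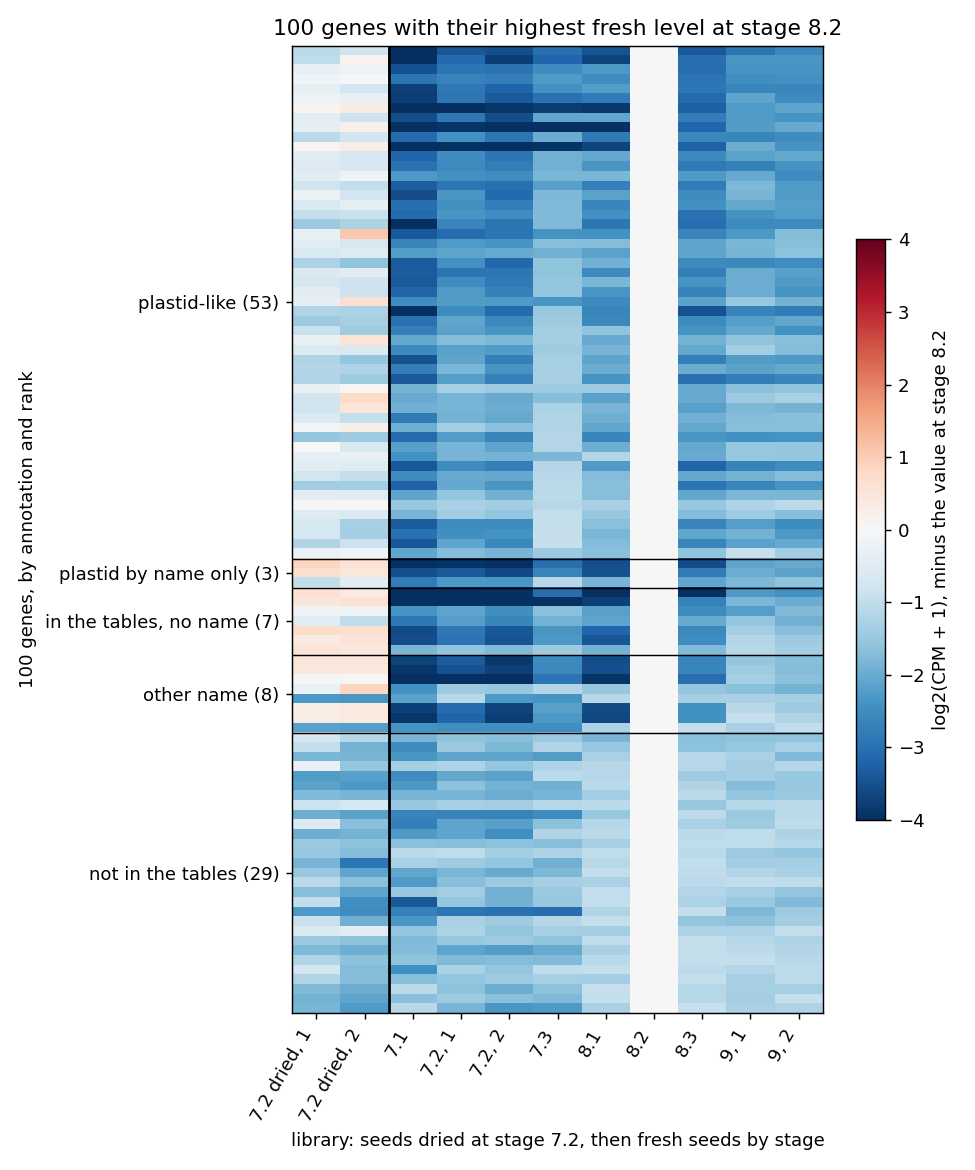
Levels of the 100 genes (rows, by annotation and rank) in the 11 libraries (columns, dried seeds left of the line, then fresh seeds by stage), as log2(CPM + 1) minus the value at stage 8.2, which is 0 in white; blue is lower and red higher. In dried seeds, 40 of 53 plastid-like and 6 of 8 otherwise named genes had a mean at most 1 unit below stage 8.2, against 4 of the 29 genes that were not in the tables.

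The difference that ranked the genes was 2.58 on the log2(CPM + 1) scale for the first gene and 0.92 for the last, and 77 genes exceeded 1. In all, 6488 genes were highest at stage 8.2 among fresh libraries, 33.6% of those with at least 2 CPM there, and the 100 genes are the upper end of these. The last gene, Glyma.12G232700 (cytochrome b559 subunit alpha, a core part of photosystem II), had 3.62 CPM at stage 8.2 and at most 1.44 CPM in other fresh libraries. The first gene left out, Glyma.03G158900 (an F-box family protein), had 12.2 CPM at stage 8.2 and at most 5.97 CPM. Both differed from their own next highest library by the same 0.92 on that scale, and the list thus ended within a continuous range of values.

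The first gene was Glyma.13G068600, a match of ndhC, which codes for a subunit of the plastid NADH dehydrogenase-like complex that returns electrons to the photosynthetic chain. It had 0.29 CPM at stage 7.1, 0.97 and 0.85 CPM at stage 7.2, 1.61 CPM at stage 7.3, 0.90 CPM at stage 8.1, 19.98 CPM at stage 8.2, 1.06 CPM at stage 8.3, and 1.85 and 2.51 CPM at stage 9. Its 392 counts at stage 8.2 gave an exact 95% Poisson interval of 18.0 to 22.1 CPM, which covers counting error only. Dried seeds had 8.85 and 11.1 CPM, below stage 8.2 but above every other library. The next gene, Glyma.09G171300, resembles petN of the cytochrome b6-f complex, which links both photosystems. It had 19.7 CPM at stage 8.2, 9.24 and 22.0 CPM in dried seeds and at most 3.13 CPM in any other library. Its replicates of dried seeds differed more than those of Glyma.13G068600, 1 lying on each side of stage 8.2.

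Photosystem II, which splits water, was the largest group with 16 genes. They matched psbA (3 genes), psbD (3), psbC, psbM and psbZ (2 each), and psbB, psbE, psbH and psbN (1 each). Glyma.13G028200, a psbA match coding for the D1 protein, had 0.87 CPM at stage 7.1, 0.83 and 1.13 CPM at stage 7.2, 1.27 CPM at stage 7.3, 1.19 CPM at stage 8.1, 30.9 CPM at stage 8.2, 2.33 CPM at stage 8.3, and 5.63 and 6.40 CPM at stage 9. Dried seeds had 33.5 and 38.7 CPM of it, both above stage 8.2. The psbA matches Glyma.05G073600 and Glyma.11G162200 had 24.0 and 31.3 CPM at stage 8.2. In dried seeds Glyma.11G162200 was also above stage 8.2, with 33.0 and 38.2 CPM, whereas Glyma.05G073600 had 18.0 and 27.6 CPM, 1 library on each side. Glyma.04G095000, a match of psbD (D2 protein), had 13.5 CPM at stage 8.2, 10.5 and 11.6 CPM in dried seeds and at most 1.94 CPM elsewhere. Glyma.11G114700, a match of psbC (the CP43 antenna protein), had 10.8 CPM at stage 8.2, 9.70 and 10.2 CPM in dried seeds and at most 1.47 CPM elsewhere. Summed over the 16 genes, dried seeds reached 86.0% and 119% of the level at stage 8.2, and no other library exceeded 17.4%.

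Photosystem I, the second light reaction, was represented by 6 genes, 4 of which matched psaA, a P700 chlorophyll a apoprotein. Glyma.U016600, on an unplaced scaffold, had 14.7 CPM at stage 8.2, 11.02 and 8.16 CPM in dried seeds, 2.31 CPM at stage 8.1 and 1.95 CPM at stage 7.3. The other psaA matches had the same profile at lower levels, and Glyma.07G143800 had 13.1 CPM at stage 8.2. The large subunit of Rubisco, the enzyme that fixes carbon dioxide, was matched by Glyma.12G061600. It had 3.28 CPM at stage 7.1, 6.83 and 4.62 CPM at stage 7.2, 6.40 CPM at stage 7.3, 7.39 CPM at stage 8.1, 57.2 CPM at stage 8.2, 5.81 CPM at stage 8.3, 12.4 and 9.24 CPM at stage 9, and 50.1 and 45.7 CPM in dried seeds. Only stage 8.2 and the dried seeds stood out, each at more than 3 times any other library.

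Genes of the photosynthetic apparatus with a match in the Arabidopsis nuclear genome were not among the 71 annotated members. For the 29 members that were not in the tables this is not known. The small subunit of Rubisco, Glyma.13G097100, had 17.5 CPM at stage 8.1, 4.84 CPM at stage 8.2 and 12.9 CPM at stage 8.3, and stage 8.2 was its lowest level of all libraries. A photosystem 2 family protein, Glyma.13G299200, went the other way, with 7.39 CPM at stage 8.2 and at most 4.93 CPM elsewhere. The photosystem II assembly factor HCF136 (Glyma.11G100800) had 55.6 CPM at stage 8.1, 71.1 CPM at stage 8.2 and 102 CPM at stage 8.3, and photosystem I subunit XI (Glyma.18G241700) had 23.7, 21.4 and 19.6 CPM at these stages. Summed over the 4 such genes in the tables, the level was 105 CPM at stage 8.2, within the range of 52.3 to 151 CPM of the other libraries. These 4 genes were picked out after their values had been seen.

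The plots of single genes place these profiles beside those of other members.

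**Figure D2:**
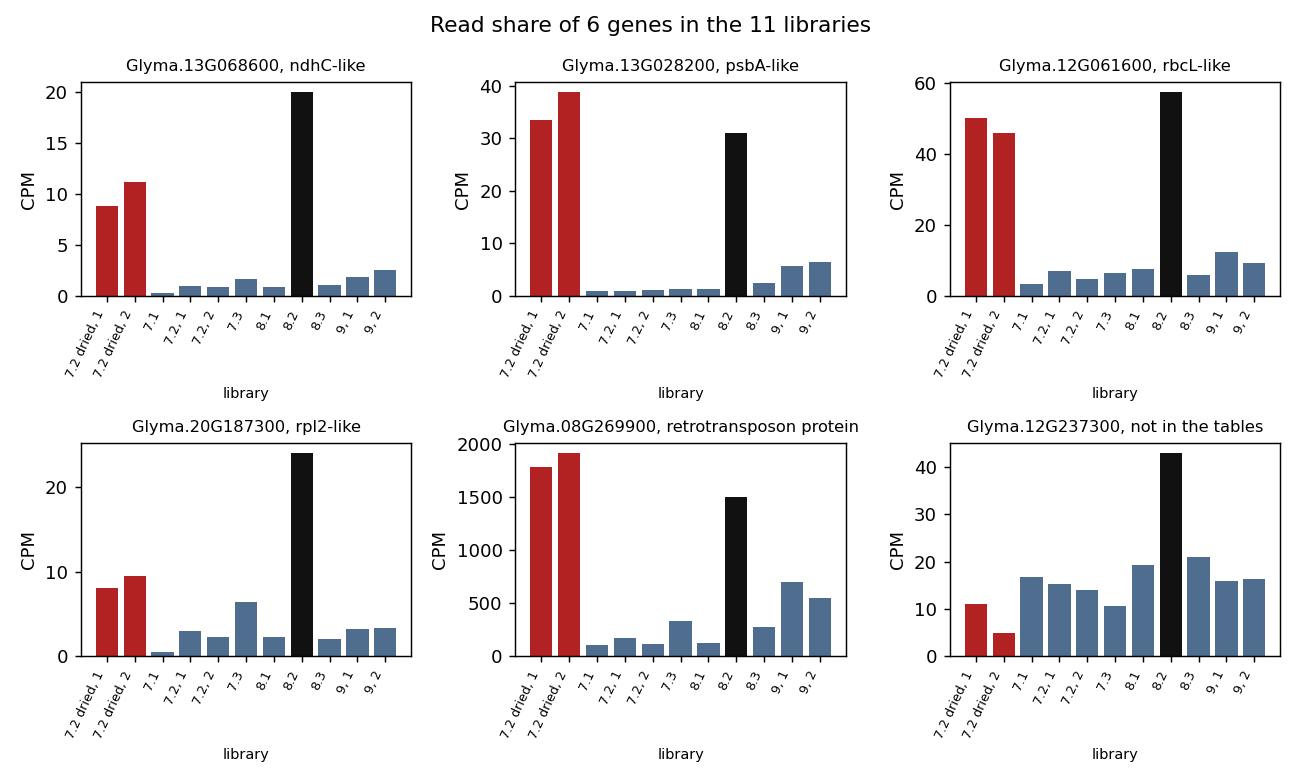
CPM of 6 of the 100 genes in each library (bars from 0, 1 bar per library; red, dried seeds of stage 7.2; blue, fresh seeds; black, stage 8.2). Glyma.13G028200 and Glyma.08G269900 were higher in dried seeds than at stage 8.2, Glyma.13G068600 and Glyma.20G187300 were lower but above the other fresh libraries, and Glyma.12G237300 was at 11.02 and 4.92 CPM in dried seeds against 42.8 CPM at stage 8.2.

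Other plastid-like genes matched the machinery of gene expression in the plastid, with 10 matches of ribosomal protein genes, 5 of the plastid-encoded RNA polymerase and 2 of matK (an intron maturase). There were also 3 matches of clpP, a protease subunit, and 1 of ycf2. Glyma.20G187300, 1 of 4 matches of rpl2, had 0.50 CPM at stage 7.1, 3.03 and 2.33 CPM at stage 7.2, 6.40 CPM at stage 7.3, 2.31 CPM at stage 8.1, 24.0 CPM at stage 8.2, 2.03 CPM at stage 8.3, and 3.25 and 3.37 CPM at stage 9. Dried seeds had 8.07 and 9.48 CPM, closer to stage 7.3 than to stage 8.2. Stage 7.3 was the second highest fresh stage for all 10 ribosomal, all 5 RNA polymerase and all 3 clpP matches. Among the 16 photosystem II matches it was so for 5, with stage 9 second highest for 9. Summed over each group, stage 7.3 reached 35.0% of stage 8.2 for the ribosomal matches and 37.1% for the polymerase matches, against 9.19% for photosystem II.

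In dried seeds the roles stood in another order. The ribosomal matches reached 45.4% and 43.9% of stage 8.2 in dried seeds, and the polymerase matches 49.3% and 31.6%. Matches of photosystem I reached 68.6% and 53.4%, those of the NADH dehydrogenase-like complex 62.5% and 63.4%, and photosystem II the values above. No test was made between these groups, whose values come from the same libraries.

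**Figure D3:**
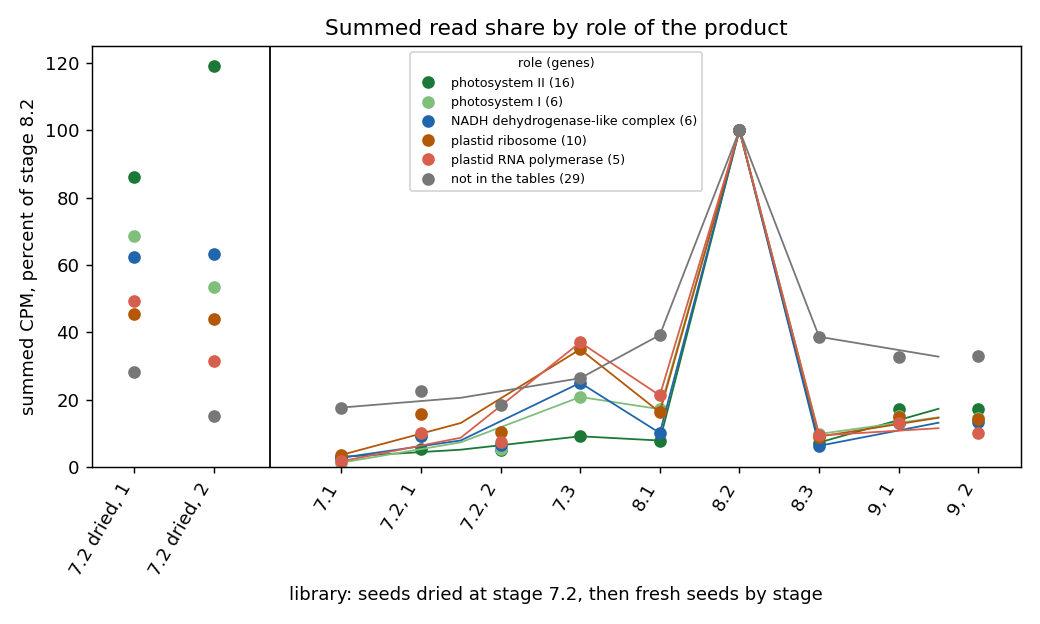
Summed CPM of the members of 5 plastid-like roles and of the 29 genes not in the tables, as a percentage of their sum at stage 8.2 (points, 1 per library; lines join stage means of fresh seeds; dried seeds left of the vertical line). At stage 7.3 the ribosomal and RNA polymerase matches stand at 35.0% and 37.1%, photosystem II at 9.19%, and in dried seeds photosystem II is the highest.

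A further 31 plastid-like genes had at least 2 CPM at stage 8.2 but were not among the 100. Stage 8.2 was the highest fresh stage for 29 of them, and stage 7.3 was the highest other stage for 30. Their sum at stage 7.3 was 69.2% of that at stage 8.2, against 22.4% for the 53 plastid-like members, a difference that follows from the rule. Dried seeds reached 59.8% and 78.3% in these 31 genes. The 3 genes with a plastid name only were Glyma.12G090600 (RF68), Glyma.15G274900 (Ycf68) and Glyma.15G248500 (accD, a subunit of acetyl-CoA carboxylase, which supplies fatty acid synthesis). Glyma.12G090600 had 26.6 CPM at stage 8.2, 48.5 and 40.1 CPM in dried seeds and at most 5.78 CPM in other libraries. Glyma.15G274900 was at 12.7 CPM at stage 8.2 and 20.5 and 17.6 CPM in dried seeds. The 4 genes of the tables with a mitochondrial match gave no member. Their summed level was nevertheless also highest at stage 8.2 among fresh libraries, at 7.34 CPM, against 5.57 CPM at stage 7.3 and less at the other stages. Dried seeds had 4.35 and 10.4 CPM of them.

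Most reads came from members without a plastid match. The most read of them, Glyma.08G269900 and Glyma.07G079100, had no Arabidopsis match of any kind listed. Whether their reads are of plastid origin was not tested. Glyma.08G269900, annotated as a retrotransposon protein, had 111 CPM at stage 7.1, 178 and 116 CPM at stage 7.2, 332 CPM at stage 7.3, 126 CPM at stage 8.1, 1504 CPM at stage 8.2, 277 CPM at stage 8.3, and 703 and 547 CPM at stage 9. It had 1790 and 1916 CPM in dried seeds. Glyma.07G079100, without a name, had 1077 CPM at stage 8.2, 1351 and 1551 CPM in dried seeds and at most 474 CPM elsewhere. Both were thus highest in dried seeds, and stage 9 came after stage 8.2.

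Other members with many reads had profiles like that of Glyma.08G269900, some more closely than others. They were Glyma.05G084600 (annotated as glucose-6-phosphate isomerase, an enzyme of glycolysis) with 509 CPM at stage 8.2, Glyma.09G164000 (retrotransposon protein) with 251 CPM, Glyma.19G247400 (the histone methyltransferase SUVR4) with 124 CPM, Glyma.05G084500 (retrotransposon protein) with 90.5 CPM and Glyma.07G079300 (no name) with 69.8 CPM. Of these members, only Glyma.19G247400 had an Arabidopsis match listed. The product names of the others were not tested against such a match. The level of Glyma.07G079100 lay between 66.2% and 84.6% of that of Glyma.08G269900 in all 11 libraries, and that of Glyma.09G164000 between 14.6% and 19.6%. These ratios varied by 1.28-fold and 1.35-fold over the libraries. They varied by 1.61-fold for Glyma.19G247400, 1.62-fold for Glyma.05G084600, 1.72-fold for Glyma.07G079300 and 2.59-fold for Glyma.05G084500. Glyma.14G158500, also without a name or an Arabidopsis match, varied more, at 2.13% of Glyma.08G269900 at stage 7.1 and 14.1% in a library of dried seeds. It had 165 CPM at stage 8.2, 252 and 209 CPM in dried seeds and at most 32.6 CPM elsewhere.

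The 29 genes that were not in the tables had another profile, though being in the tables was not independent of the levels in dried seeds. Their second highest stage was 8.1 in 9 cases, 8.3 in 9, stage 9 in 8 and stage 7.3 in 3, and their summed level at stages 8.1 and 8.3 was 39.2% and 38.7% of that at stage 8.2. No plastid-like gene had stage 8.3 as its second highest. Glyma.12G237300, the most read of the 29, had 16.7 CPM at stage 7.1, 15.3 and 13.9 CPM at stage 7.2, 10.6 CPM at stage 7.3, 19.3 CPM at stage 8.1, 42.8 CPM at stage 8.2, 21.0 CPM at stage 8.3, and 15.8 and 16.3 CPM at stage 9. Dried seeds had 11.02 and 4.92 CPM of it.

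Copies and neighbours recur in the list. Of 31 Arabidopsis plastid genes matched, 13 were matched by more than 1 member, which accounts for 35 members. The study describes its mapped reads as those that mapped unambiguously, so reads that fit several copies equally may be missing here, and the level of a single copy is uncertain. The level of the psbA match Glyma.11G162200 was 61.9% to 128% of that of Glyma.13G028200 over the libraries. There were 12 members in 6 pairs of close identifiers. Among them were Glyma.09G171300 and Glyma.09G171400, matches of petN and psbM, and Glyma.01G153400 and Glyma.01G153500, matches of rps4 and psbD. The remaining pairs were Glyma.05G084500 and Glyma.05G084600, Glyma.07G079100 and Glyma.07G079300, Glyma.08G229200 and Glyma.08G229300, and Glyma.16G000700 and Glyma.16G000800. Members lay on all 20 chromosomes and on unplaced scaffolds, with at most 9, on chromosome 8.

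By name, 16 of 64 named members (25%) held a word of the photosynthesis list, against 23 of 1595 named genes with at least 2 CPM at stage 8.2 (1.44%). The ribosome list held 10 members, all plastid-like (15.6% of named members, against 1.94% of those named genes). The kinase list held 2 (3.1%, against 5.64%) and the chromatin list 1 (1.56%, against 1.13%). No member fell in the other 14 lists, among them heat shock proteins and chaperones (45 eligible genes) and transcription factors (151). Because annotation went with the contrast of stage 9 and dried seeds, these shares describe the list and are not a test.

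The rule that chose the genes had not used the libraries of dried seeds, but it had used the other fresh libraries. It favoured a low level in the highest of these, which is the level that dried seeds had to exceed below. The shares are thus a description and not a test. In 62 of the 100, both libraries of dried seeds were above every fresh library other than stage 8.2, against 3.35% of the genes with at least 2 CPM at stage 8.2. The 62 comprised 43 of 53 plastid-like genes, with all 16 of photosystem II, all 6 of photosystem I, all 6 of the NADH dehydrogenase-like complex and all 3 of cytochrome b6-f. They comprised 6 of 10 ribosomal, 1 of 5 RNA polymerase and 1 of 3 clpP matches. Of the genes not in the tables, 3 of 29 met the criterion, a class whose definition was not independent of the levels in dried seeds. Both dried libraries were above stage 8.2 itself in 13 members, against 15.8% of genes.

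**Figure D4:**
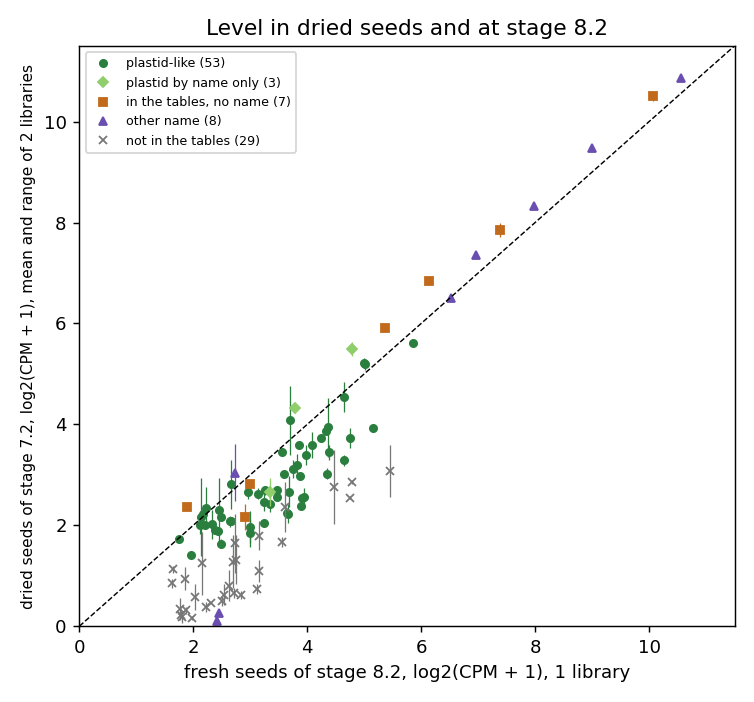
Level of each of the 100 genes in dried seeds (vertical axis, mean and range of 2 libraries) against stage 8.2 (horizontal axis, 1 library), both as log2(CPM + 1), with a dashed line of equal levels. Plastid-like genes lie mostly on or below the line, the members with the most reads a little above it, and most genes not in the tables far below it.

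Drying after harvest at stage 7.2 was compared with fresh seeds of the same stage (n = 2 libraries each). A gene was called at a change of at least 2-fold and a Benjamini-Hochberg adjusted p under 0.05, over all genes tested, in the quasi-likelihood test of edgeR. Of 94 members tested, 77 rose, against a background of 15% of all 30132 genes. Fresh seeds of stage 7.2 had entered the rule as an upper limit, which favours low levels there, and dried seeds had not. The median log2 fold change was 3.26 for the members and -0.05 for all genes. All 53 plastid-like genes rose, with log2 fold changes from 1.65 to 6.14, and so did the 3 with a plastid name, all 7 without a name and all 6 tested with another name. Of the genes not in the tables, 8 of 25 rose, and being in the tables was not independent of the levels in dried seeds.

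The largest change in dried seeds was that of Glyma.08G229300, which has no name. It had 55.7 and 62.1 CPM in dried seeds, against 0.49 and 0.35 CPM in fresh seeds. The groups were far apart, with a log2 fold change of 7.70 ± 0.367 (SE) and a Benjamini-Hochberg adjusted p = 0.00202 in edgeR's quasi-likelihood test. Glyma.15G274900 (Ycf68), with 20.5 and 17.6 CPM in dried and 0.34 and 0.13 CPM in fresh seeds, changed by 6.84 and Glyma.12G090600 (RF68) by 6.61 on the log2 scale. The psbA match Glyma.05G073600 had 18.0 and 27.6 CPM in dried seeds and 0.63 and 0.35 CPM in fresh seeds, a log2 fold change of 6.14 ± 0.504 (SE) and a Benjamini-Hochberg adjusted p = 0.00217 in edgeR's quasi-likelihood test.

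By role, the median log2 fold change on drying was 4.20 for photosystem II, 3.94 for photosystem I and 3.83 for the NADH dehydrogenase-like complex. It was 2.62 for the RNA polymerase, 2.31 for the ribosomal proteins and 1.91 for clpP. No member was called lower by edgeR, against 17.9% of all genes, and 1 was lower at an unadjusted p under 0.05. DESeq2 called 77 members higher and 0 lower. With dried replicate 1 left out 2 members were called lower, and with fresh replicate 2 left out 1 was.

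**Figure D5:**
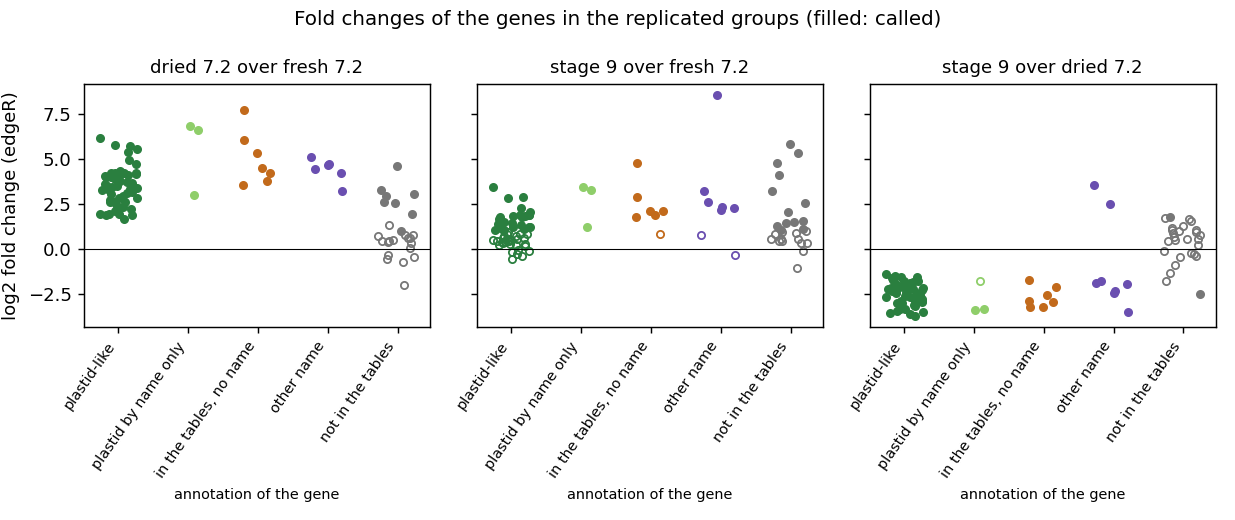
Log2 fold changes of the members from edgeR in 3 comparisons (panels; 2 libraries per group), by annotation, with called genes filled and others open. All 53 plastid-like genes were higher in dried than in fresh seeds of stage 7.2, and 52 were lower at stage 9 than in dried seeds; values against a group with 3 counts or fewer per library depend on the fit's prior count.

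Mature seeds of stage 9 were compared with fresh seeds of stage 7.2, the earliest replicated stage. Both had entered the rule, which kept genes that were low at both stages relative to stage 8.2, so the counts in each direction are partly fixed by it and are given as a description. Of 97 members tested, 52 rose, against 17.8% of all genes, with a median log2 fold change of 1.08 for the members and -0.10 for all genes. Among plastid-like genes 24 of 53 rose. These were 10 of 16 of photosystem II, 4 of 6 of photosystem I, 4 of 6 of the NADH dehydrogenase-like complex, all 3 of cytochrome b6-f and the Rubisco large subunit match, but only 1 of 10 ribosomal and 1 of 5 polymerase matches and no clpP match. No member fell by edgeR's test (27.1% of all genes did, a gap to which the rule itself contributes), and none was lower at an unadjusted p under 0.05 or by DESeq2, which called 45 higher.

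Among genes well read at stage 9, Glyma.08G229300 had 10.5 and 9.48 CPM there, against 0.49 and 0.35 CPM in fresh seeds of stage 7.2, a log2 fold change of 4.77. The other largest fitted changes were in genes nearly unread in those fresh seeds, for which only a bound can be given. Glyma.18G216200, a leucine-rich repeat receptor-like kinase of the plasma membrane, had 1.25 and 1.80 CPM at stage 9 and 0 CPM in both libraries of stage 7.2. Against 3 counts per library this is a log2 change of at least 4.08. Of the genes not in the tables, Glyma.12G008100 had 1.36 and 2.09 CPM at stage 9, against 0.029 and 0.031 CPM, a change of at least 4.26. For Glyma.10G174100 the change was at least 3.70 and for Glyma.08G219300 at least 2.88. Glyma.20G246600, with 1.51 and 2.18 CPM at stage 9 and 0.14 and 0.094 CPM at stage 7.2, had a log2 fold change of 4.08. The 4 genes given as bounds had 0.60 to 1.27 CPM at stage 8.1 and 0.75 to 2.16 CPM at stage 8.3, on either side of 2.40 to 5.56 CPM at stage 8.2.

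Mature seeds were also compared with dried seeds of stage 7.2, which had lost water early. This comparison shares its libraries with the others. It is also a contrast on which annotated genes had been listed, so the counts for annotated genes are not independent of their annotation. Stage 9 had entered the rule as an upper limit, which favours low levels there, and dried seeds had not. The counts in each direction are thus partly fixed by the rule and are given as a description. Of 98 members tested, 68 were lower at stage 9, against 5.02% of all genes, and 3 were higher, against 2.76%. The median log2 fold change was -2.11 for the members and -0.05 for all genes. Of the plastid-like genes 52 of 53 were lower, the exception being the psbM match Glyma.09G171400 (0.61 and 0.81 CPM at stage 9, against 1.63 and 6.63 CPM in dried seeds). Of the genes not in the tables, 1 of 27 was lower and 1 higher.

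The matK match Glyma.14G132100 had 0.38 and 0.38 CPM at stage 9, against 3.18 and 4.27 CPM in dried seeds. Its log2 fold change was -3.70 ± 0.426 (SE), with a Benjamini-Hochberg adjusted p = 0.0258 in edgeR's quasi-likelihood test. The psbZ matches Glyma.01G095900 and Glyma.08G363500 followed at -3.62 and -3.58, and Glyma.17G245300, a mitogen-activated protein kinase kinase kinase of signalling cascades, at -3.50. The last had 1.10 and 0.81 CPM at stage 9, against 4.58 and 11.2 CPM in dried seeds. In the last 3 genes the dried replicates differed by more than 2-fold.

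The 3 members that were higher at stage 9 than in dried seeds were Glyma.01G213800, Glyma.18G216200 and Glyma.10G174100. Glyma.01G213800, a cell cycle regulated microtubule associated protein, had 1.17 and 1.14 CPM at stage 9, against 0.078 and 0.066 CPM in dried seeds. Its log2 fold change was 3.57, and it was 2.52 for Glyma.18G216200 and 1.76 for Glyma.10G174100. The best Arabidopsis matches of Glyma.01G213800 and Glyma.18G216200 were not plastid genes, and Glyma.10G174100 was not in the tables. The lowest adjusted p in this comparison was 0.0255 among the members, and no gene was called without stage 9 replicate 1 or without stage 9 replicate 2, which left 0 members lower and 0 higher. Without dried replicate 1, 13 members were higher. The call of Glyma.10G174100 was also lost without dried replicate 2 (edgeR, adjusted p = 0.0751) and in the test of DESeq2 (adjusted p = 0.127).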

How the data were processed

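After removal of adaptor and low complexity sequence, the authors used Bowtie2 to align single-end reads (reference: Williams 82). They deposited whole-number counts per gene, without normalization. The study describes its mapped reads as unambiguously mapped, and the totals of the deposited counts are the mapped reads it lists, where it lists a library. The study names the TruSeq RNA sample preparation kit for its libraries. Beyond this kit, any selection of messenger RNA is not stated in the sources used here, nor is the counting program. A line without a gene name held 0 counts and was left out. Libraries were matched to stages by column names and sample labels.

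The members and gene lists were chosen with earlier results of these data known. The rule used CPM over column sums and a pseudocount of 1. Its contrast was not tested. Each comparison was fitted on its 4 libraries with R 4.3.3 and edgeR 4.0.16 (limma 3.58.1), TMM, filterByExpr and edgeR's quasi-likelihood F test (two-sided). The study calls its replicates biological, without stating separate plants, so p-values measure only the spread between these samples. Intervals at stage 8.2 are exact Poisson. Gene names came from the study's supplementary tables, part of which was used here, and no identifier matched the RefSeq table. Promoter motifs and sequences were not analysed here.

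Named genes were the 12 of highest rank, the 10 with the most CPM at stage 8.2, up to 4 with the largest called change per comparison and direction, the genes at the edge of the list, up to 10 adjacent or same-named members, and up to 4 of each gene list with 3 or more members. Other genes named were chosen after their values were seen. Alternatives were DESeq2 1.42.0 (size factors or test), other filters, thresholds, pseudocounts and minimums, a fit of all libraries, a replicate block, and each replicate left out. Scripts (Python 3.11.15, numpy 2.4.6, pandas 2.3.3, scipy 1.17.1, matplotlib 3.10.9) were tested on simulated data.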

Additional observations from a re-analysis of the deposited data

How the results depend on the processing

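Of the 100 members, 59 stayed with a pseudocount of 5 CPM and 46 with a minimum of 10 CPM, and 88 to 96 under the other 5 settings and 94 to 100 with a replicate left out. The plastid-like genes among the chosen 100, an alternative added after the data were seen, numbered 31 with a minimum of 10 CPM and 41 with a pseudocount of 5 CPM, and 51 to 53 under the other settings. The criterion on dried seeds was met by 64 to 73 members with 1 dried library left out. For dried against fresh seeds, members called lower numbered 2 without a filter on low counts, 1 with all 11 libraries in a single fit, and 0 to 2 with a replicate left out, and members called higher numbered 58 to 80. For stage 9 against fresh seeds of stage 7.2, 27 members were higher with at least 10 counts in every library, and 39 to 64 otherwise. For stage 9 against dried seeds, members higher numbered 8 without a filter, 0 with at least 10 counts in every library, 0 at an adjusted p under 0.01 and 5 with all 11 libraries, and 0 to 13 with a replicate left out. Members lower numbered 0 at an adjusted p under 0.01 and 0 to 73 with a replicate left out. The cause of these shifts was not tested. Of 372 fold changes of single genes under alternatives, 347 stayed on their side of the thresholds, 25 lost the call and 0 reversed.

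With the replicate number as a block, 77 members were higher and 0 lower in dried against fresh seeds, 52 and 0 at stage 9 against fresh seeds, and 4 and 71 at stage 9 against dried seeds. The labels do not say that the numbers pair samples, and the deviations of same-numbered libraries correlated by 0.112, 0.222 and 0.188 across 11420 genes, which are not independent replicates. Depth limited the members with few reads: at stage 8.2 the fewest counts were 41, in Glyma.10G121600, and the last of the 100 by rank had 71.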
